A study of Arabidopsis thaliana with 3 samples.

Results

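The loci described here are MIR166a and MIR166b, 2 of the 7 *Arabidopsis thaliana* genes that encode the same mature miR166. They were taken by name from the 11 loci of the deposited table and are described in all libraries and under all methods. The table comes from small RNA sequencing (sRNA-seq) of inflorescences of wild-type Columbia plants, in 3 biological replicate libraries with no treatment and no second genotype. The authors aligned each library to TAIR10 with 8 methods and counted the reads placed at each locus, so the comparison is between methods and between loci, not between conditions. It asks how reads that fit several loci equally well, called multi-mapping (MMAP) reads, are divided between the 2 genes. Nothing in the labels places the replicates in different batches. The library totals, worked back from the deposited counts and their scaled values, lay between 8274294 and 11578886 reads.

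A plant miRNA gene is transcribed into a long primary transcript that folds into a stem-loop. A Dicer-like enzyme cuts from the stem a short duplex, of which 1 strand, the miRNA, is loaded into an ARGONAUTE protein, while its partner, the miRNA*, is mostly lost. miR166 directs the cleavage of mRNAs of class III homeodomain-leucine zipper transcription factors such as PHABULOSA and REVOLUTA, which set the upper side of leaves, the shoot meristem and the vasculature. Because paralogs release the same miRNA, a read of it does not show which gene it came from.

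The mature sequence is shown because the counts at MIR166 loci below are of reads placed for this miRNA. It was read from the TAIR10.1 genome and is written with T in place of U. Bases 2 to 8 are in capitals.
miR166: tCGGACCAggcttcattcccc
This sequence had 7 exact matches in the genome, one in each MIR166 gene. The annotated precursors of the 2 genes are shown because the bases around the miRNA decide which reads can align uniquely at each locus. The miRNA*, on the 5′ arm, and the miRNA, on the 3′ arm, are in capitals.
MIR166a precursor: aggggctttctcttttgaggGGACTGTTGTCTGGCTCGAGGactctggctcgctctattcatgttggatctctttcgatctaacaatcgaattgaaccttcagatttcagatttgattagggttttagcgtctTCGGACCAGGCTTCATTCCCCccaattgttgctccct
MIR166b precursor: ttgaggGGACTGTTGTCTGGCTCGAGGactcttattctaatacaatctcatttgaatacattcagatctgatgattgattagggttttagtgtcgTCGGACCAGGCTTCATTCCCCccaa
MIR166a (AT2G46685) lies on the plus strand of chromosome 2 from 19176108 to 19176277 of TAIR10.1, and its annotated precursor of 170 nt is a single exon. MIR166b (AT3G61897) lies on the plus strand of chromosome 3 from 22922206 to 22922325, with a single-exon precursor of 120 nt. No other annotated gene overlaps either of them. The deposited table gives no coordinates, and TAIR10.1 was used here for sequence only.

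The miRNA* of the 2 genes is the same sequence, and it had 2 matches in the genome, which were these loci. The nearest match to it within 200 nt 5′ of the miRNA was found at each of the other genes, and is shown because it separates MIR166a and MIR166b from them. Bases that differ from the shared miRNA* are in capitals.
MIR166a and MIR166b: ggactgttgtctggctcgagg
MIR166c: ggaTtgttgtctggctcgagg
MIR166d: ggaAtAttgtctggctcgagg
MIR166e: ggaAtgttgtctggcAcgagg
MIR166f: TgaAtgAtgCctggctcgagA
MIR166g: ggaAtgttgtTtggctcgagg
Positions are counted from 1 at the 5′ end, with the base of the shared miRNA* first. MIR166c carried C4T alone, and MIR166d, MIR166e, MIR166f and MIR166g all carried C4A with 1 or more further substitutions. Each of these 5 sequences had 1 match in the genome. Only that of MIR166e is annotated as a miRNA*.

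The identity of MIR166a and MIR166b extended past the miRNA*. A run of 36 nt around it was the same in both genes, from 19176118 to 19176153 on chromosome 2 and from 22922202 to 22922237 on chromosome 3. Among the 21 pairs of MIR166 loci, this was the longest exact run in the 200 nt 5′ of the miRNA, ahead of the 27 nt shared by MIR166c and MIR166d. A run of 27 nt that begins with the miRNA was also shared by MIR166a and MIR166b alone. The stretch between miRNA* and miRNA differed in length, with 92 nt in MIR166a and 68 nt in MIR166b. Folded from the first base of the miRNA* to the last base of the miRNA, the 2 stem-loops had minimum free energies of -49.9 and -43.1 kcal per mol, and in each of them 15 bases of the miRNA were paired with the miRNA*.

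ShortStack in mode U places an MMAP read by the number of uniquely aligned reads in a vicinity of 250 nt around each candidate position. In such a window, 227 of the 250 start positions near MIR166a gave a 21-mer that occurs once in the genome, and 225 of 250 near MIR166b. Of the other positions, 18 at each locus gave a 21-mer found at these 2 loci and nowhere else. The 16 that cover the miRNA* lay from 123 to 108 nt before the first base of the miRNA in MIR166a (distances -123 to -108) and from 99 to 84 nt before it in MIR166b (distances -99 to -84). A 21-nt read of the shared miRNA*, or one shifted within that run, therefore aligns to both genes and counts at neither as a unique read. The map of the 2 loci shows these positions.

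**Figure D1:**
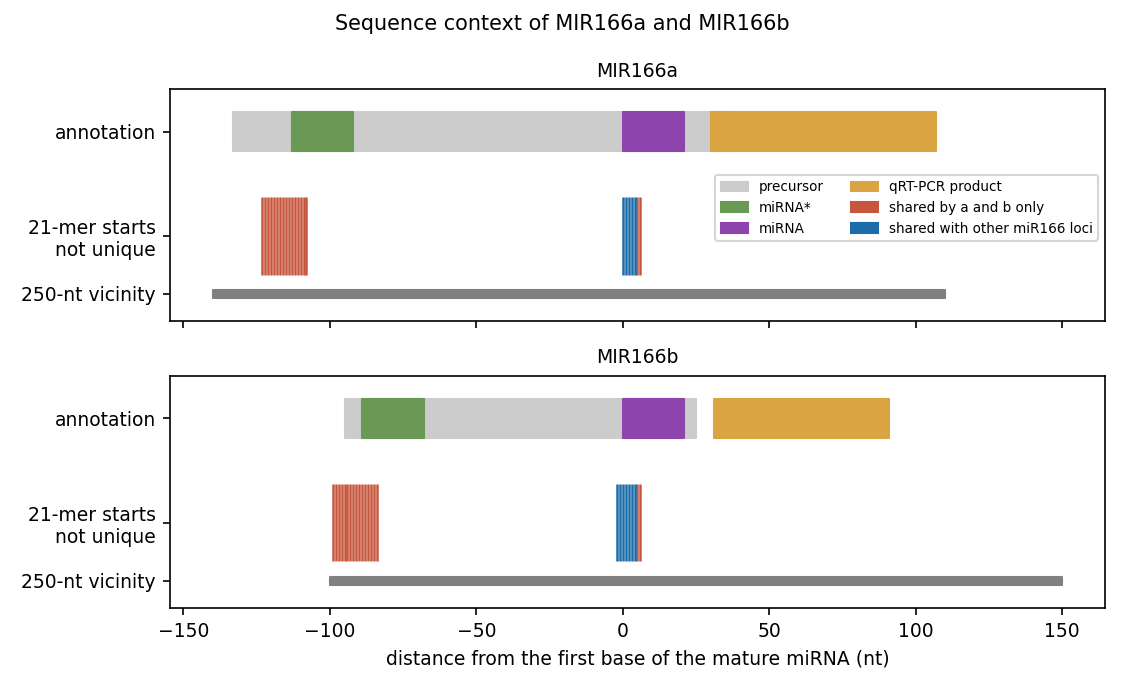
Each panel shows 1 locus along the distance in nt from the first base of the mature miRNA, with the annotated precursor, miRNA*, miRNA and qRT-PCR product above, the start positions of 21-mers that are not unique in the genome in the middle, and the vicinity of 250 nt below. At both loci the 16 start positions around the miRNA* are shared by MIR166a and MIR166b only, while the 5 (MIR166a) and 7 (MIR166b) that are shared with further MIR166 loci lie at the miRNA.

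The study also measured the primary transcripts of the paralogs by qRT-PCR, and those values were not analysed here, so no placement is set against a transcript level. The primers are shown because they mark the parts of the primary transcripts that tell the 2 genes apart.
MIR166a forward: gctccctgtttactccatatttcttc
MIR166a reverse: cctttaacaagggttcattcactgg
MIR166b forward: ctccctcacaatccgaattaacg
MIR166b reverse: accctagatcaaaagttgaaaatggac
Each primer had 1 match in the genome. The products are 77 nt for MIR166a, on chromosome 2 from 19176271 to 19176347, and 60 nt for MIR166b, on chromosome 3 from 22922332 to 22922391. They begin 10 nt (MIR166a) and 11 nt (MIR166b) past the last base of the miRNA, and hence outside both shared runs. Every 21-mer that starts in them and in the vicinity was unique in the genome.

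Under ShortStack-U, nearly all reads of the family were placed at MIR166a and almost none at MIR166b. MIR166a received 71306, 62185 and 92879 RPM (reads scaled to a common library size) in replicates 1, 2 and 3. MIR166b received 14.2, 17.2 and 21.4 RPM, which were 137, 199 and 177 reads. No library came near an overlap of the 2 loci. The ratio of MIR166a to MIR166b was 5010 in replicate 1, with a 95% Clopper-Pearson interval of 4238 to 5967. Replicate 2 gave 3618 (3149 to 4179) and replicate 3 gave 4342 (3747 to 5060), for a mean of 4323 ± 696 (SD, n = 3). These intervals, like all given here, cover the counting of placed reads only. They do not cover the counting of the unique reads that guide the placement, nor PCR copies of 1 molecule.

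**Figure D2:**
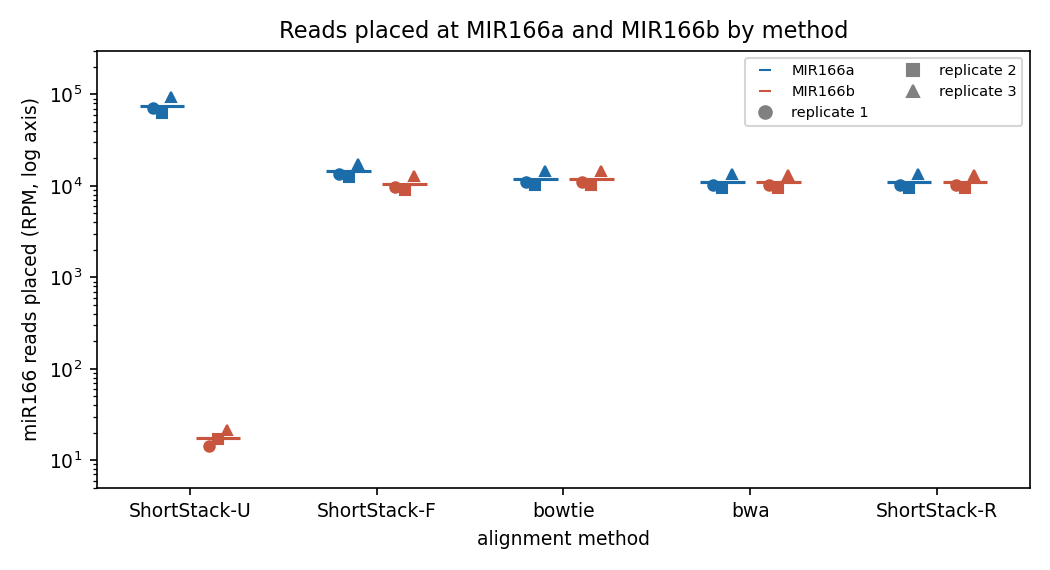
The log axis gives the RPM placed at MIR166a (blue) and MIR166b (red) under each of the 5 methods that place MMAP reads, with 1 point per library and a bar at the mean of the 3 libraries. Under ShortStack-U the points lie at 62185 RPM or above for MIR166a and at 21.4 RPM or below for MIR166b, and under the other methods all points lie between 8942 and 17440 RPM.

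Under ShortStack-F, which also counts MMAP reads in the vicinity, each with a weight that falls with its number of positions, MIR166a received 13570, 12503 and 17440 RPM and MIR166b 9693, 8942 and 12712 RPM. MIR166a was higher in 3 of 3 libraries, and the ratio was 1.40, 1.40 and 1.37, or 1.39 ± 0.0158 (SD, n = 3). None of the 3 intervals of this ratio, which together run from 1.36 to 1.41, includes 1.

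ShortStack-R, bowtie and bwa pick a position at random. Under ShortStack-R, MIR166a received 10161, 9421 and 13346 RPM and MIR166b 10204, 9364 and 13294 RPM. Under bowtie they received 11127, 10192 and 14492 RPM (MIR166a) and 10978, 10212 and 14418 RPM (MIR166b), and under bwa 10236, 9418 and 13363 RPM (MIR166a) and 10217, 9394 and 13235 RPM (MIR166b). Within each library the 2 genes thus stood next to each other, and the libraries differed from one another more than the genes did. The ratio was 1.002 ± 0.00541 under ShortStack-R, 1.01 ± 0.00776 under bowtie and 1.005 ± 0.00432 under bwa (SD, n = 3). The 9 intervals of the single libraries lay between 0.987 and 1.02, and 2 of them did not include 1, those of replicate 1 under bowtie (1.005 to 1.02) and of replicate 3 under bwa (1.001 to 1.02). Under the 3 methods that leave MMAP reads out (Novoalign, ShortStack-N, and bowtie run with -m 1), both loci were listed with 0 reads in all 3 libraries.

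**Figure D3:**
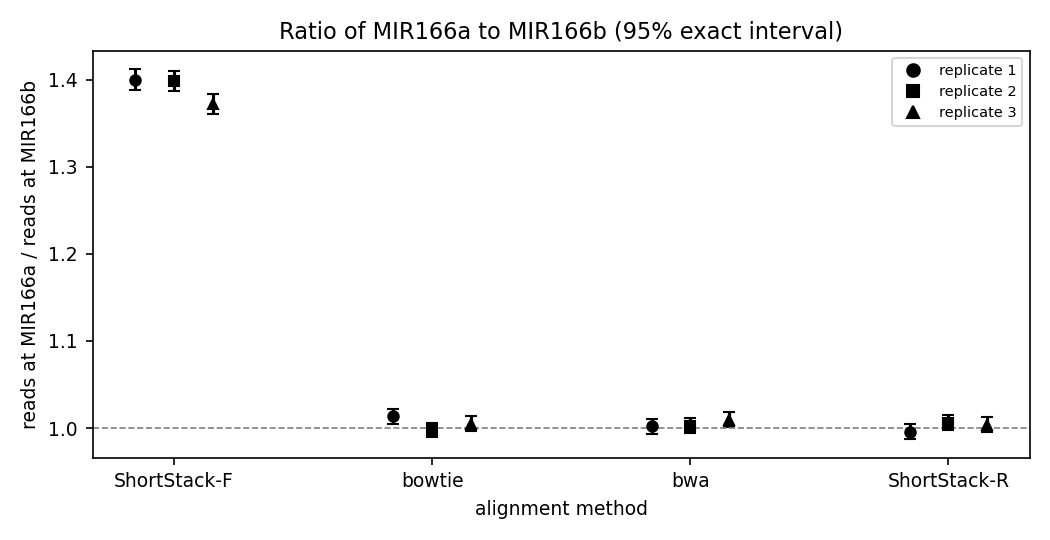
Points give the reads at MIR166a divided by the reads at MIR166b in each library, with 95% exact intervals, for the 4 methods other than ShortStack-U. The 3 libraries lie from 1.37 to 1.40 under ShortStack-F and from 0.996 to 1.01 under bowtie, bwa and ShortStack-R.

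On the log2(RPM + 1) scale, MIR166a stood above MIR166b by 11.98 ± 0.229 (SD, n = 3) under ShortStack-U and by 0.48 ± 0.0164 under ShortStack-F. For the random methods the log2 difference was 0.0080 ± 0.0111 (bowtie), 0.0067 ± 0.0062 (bwa) and 0.0027 ± 0.0078 (ShortStack-R). It was larger under ShortStack-U than the mean of the other 4 methods by 11.86 ± 0.228, with the same direction in all 3 libraries. With the methods exchanged inside each library, the exact permutation test gave a two-sided p = 0.008, the smallest it can give. All methods aligned the same libraries, so this p does not measure variation between plants. Random placement holds the ratio near 1 by construction. The test therefore says only that ShortStack-U stood furthest from the other methods in each library. For the 2 loci within a method, an exact permutation test that swaps them within libraries cannot go below p = 0.25 with 3 libraries, which it gave for ShortStack-U, ShortStack-F and bwa (adjusted p = 0.42, Benjamini-Hochberg over the 5 methods).

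Set against random placement by ShortStack-R, the change under ShortStack-U was far from symmetric. MIR166a rose 6.86 ± 0.226-fold (SD, n = 3), from 6.60-fold in replicate 2 to 7.02-fold in replicate 1. MIR166b was 628 ± 86.2 times lower, by 717, 545 and 621 times in replicates 1, 2 and 3. The rise of MIR166a has a ceiling, since an equal split over the 7 loci already gives it 14.3% of the reads, while the fall of MIR166b has none. Under ShortStack-F, MIR166a was 1.32 ± 0.0148 times and MIR166b 0.954 ± 0.00332 times its own RPM under ShortStack-R.

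In shares of all miR166 reads, MIR166a and MIR166b together had 99.7, 94.4 and 99.7% under ShortStack-U in replicates 1, 2 and 3. The summed share was 97.9% ± 3.07 (SD, n = 3), against 32.5% ± 0.106 for ShortStack-F. Random placement gave 31.0% ± 0.0529 (bowtie), 28.6% ± 0.0350 (bwa) and 28.5% ± 0.0548 (ShortStack-R). An equal split over 7 loci would give the pair 28.6%. The value under bowtie stood above it while MIR166e, the only locus on the minus strand, received 7.16, 7.12 and 7.10% of the reads. The paper reports a strong bias of bowtie toward the top strand in simulated *A. thaliana* libraries. It names miR166e as a case where this bias can affect the estimates for paralogs. The part of the strand in the values here was not tested. ShortStack-U exceeded the mean of the other 4 methods by 67.8 ± 3.08 percentage points, in each of the 3 libraries (p = 0.008 in the same exact test). MIR166b moved the other way. Its share was 0.0199, 0.0261 and 0.0230% under ShortStack-U, below the mean of the other 4 methods by 14.4 points (difference -14.4 ± 0.0124, SD, n = 3, lower in 3 of 3 libraries, exact permutation p = 0.008). The sum for the pair under ShortStack-U is thus almost entirely the share of MIR166a. Random placement holds both shares near an equal split by construction, so the tests of the shares say only that ShortStack-U stood furthest out. Their p values were not adjusted for one another.

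Among the 7 loci under ShortStack-U, MIR166b ranked 5th, 6th and 5th in replicates 1, 2 and 3. Of its 15 pairings with MIR166c to MIR166g, 12 had an adjusted p under 0.05 in exact binomial tests on reads, 8 with MIR166b lower and 4 with it higher. These tests count each placed read as independent, although the reads of a library share their weights, whose own noise is left out. Pairs among the other loci were not tested, so the count is not shown to be particular to MIR166b. In replicate 2 those loci also stood apart, with 350 reads at MIR166c, 798 at MIR166d, 1676 at MIR166e and 95 at MIR166g. In replicate 1 the 137 reads of MIR166b did not differ from the 139 at MIR166d or the 119 at MIR166e beyond counting error (exact binomial tests on reads, two-sided, adjusted p = 0.95 and 0.51 over 75 such tests, which were chosen after the values were seen). In replicate 3 its 177 reads did not differ from the 193 at MIR166e in the same way (exact binomial test, adjusted p = 0.65). MIR166c stood above it in each library, with 282, 350 and 366 reads, and MIR166g below it, with 0, 95 and 48 reads. In replicate 2, where MIR166f received 5.23% of the reads against 0.180 and 0.230% in replicates 1 and 3, the share of MIR166b had an interval of 0.0226 to 0.0300%, beside 0.0167 to 0.0235% in replicate 1 and 0.0197 to 0.0266% in replicate 3.

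**Figure D4:**
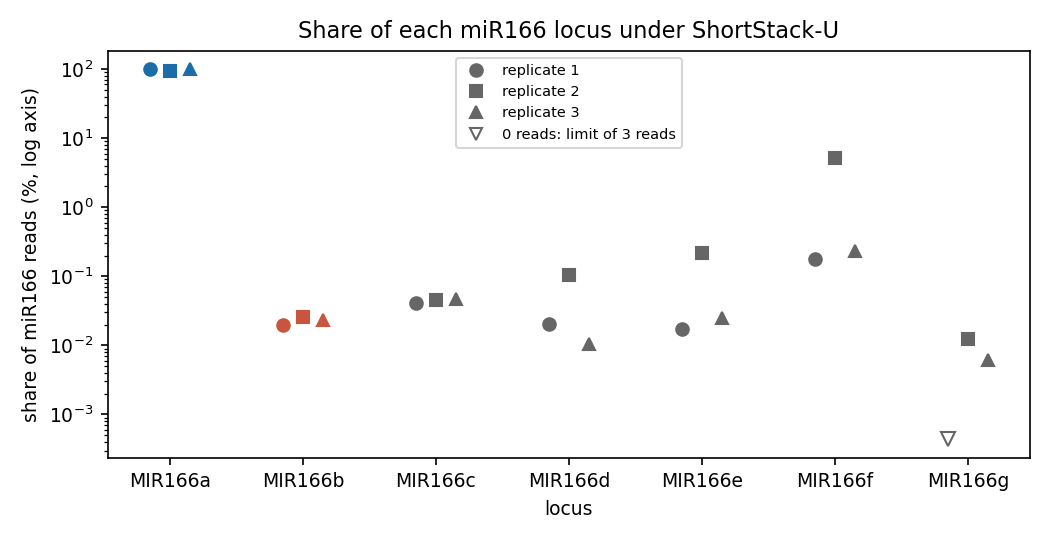
Points give the share of each locus in the miR166 reads of 1 library under ShortStack-U, on a log axis in percent. The open triangle marks the limit of 3 reads, 0.000436%, where MIR166g was listed with 0 reads. MIR166a lies at 94.4% or above, MIR166b between 0.0199 and 0.0261%, and MIR166f is higher in replicate 2 than in the other libraries.

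Against the mean of MIR166c to MIR166g on the log2(RPM + 1) scale, MIR166b under ShortStack-U was lower by 0.93 on average (difference -0.93 ± 1.34, SD, n = 3), lower in 2 of 3 libraries. The spread between libraries was larger than the difference (exact permutation test of the 6 loci within libraries, two-sided, p = 0.52, adjusted p = 0.65 over the 5 methods). The log2 difference was -0.16 without replicate 2, -1.39 without replicate 1 and -1.92 with values under 10 RPM left out, and none of these passed (exact permutation test, adjusted p from 0.28 to 0.94). With a replicate left out, the smallest p of a single method does not pass after adjustment, so a pass was hardly possible there. Without MIR166f the log2 difference was 0.0015, so its direction rests on that locus. In shares of reads, MIR166b was below the mean of the 5 other loci in 3 of 3 libraries, at 0.385, 0.0232 and 0.360 times that mean in replicates 1, 2 and 3. That mean rests largely on MIR166f as well, which had the most reads of the 5 in each library (1240, 39899 and 1770). The ratio in shares was not computed without MIR166f.

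Under ShortStack-F, MIR166b lay slightly above the mean of MIR166c to MIR166g in 3 of 3 libraries. It received 13.56, 13.57 and 13.64% of the miR166 reads, which was 0.0618, 0.0768 and 0.111 percentage points more than that mean. MIR166b was the highest of the 6 loci in replicates 1 and 3, and MIR166f, with 13.8%, was higher in replicate 2. The log2 difference from the mean of the 5 others was 0.0089 ± 0.0026 (SD, n = 3), positive in 3 of 3 libraries, and did not pass the test (exact permutation test within libraries, two-sided, p = 0.19, adjusted p = 0.38). Without MIR166f it was 0.012 and passed (exact permutation test, p = 0.008, adjusted p = 0.04). With replicate 2 left out as well, an alternative chosen after the values were seen, it was 0.0093. It did not pass (exact permutation test, p = 0.08 where the smallest possible is 0.04, adjusted p = 0.4). A single exact permutation p of 0.04 would not pass after adjustment over the 5 methods, so a pass was hardly possible here. Library by library, MIR166b had more reads than the other locus in 14 of 15 pairs under ShortStack-F, of which 3 had an adjusted p under 0.05 in the exact binomial test, all in replicate 2. MIR166f in replicate 2 was the 1 pair in which MIR166b was lower, at 0.983 times its reads, and this pair passed as well, with the smallest adjusted p of the 15 (exact binomial test, adjusted p = 0.0003). The binomial tests here also leave out the noise of the weights that the reads of a library share, and pairs among the other loci were not tested.

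**Figure D5:**
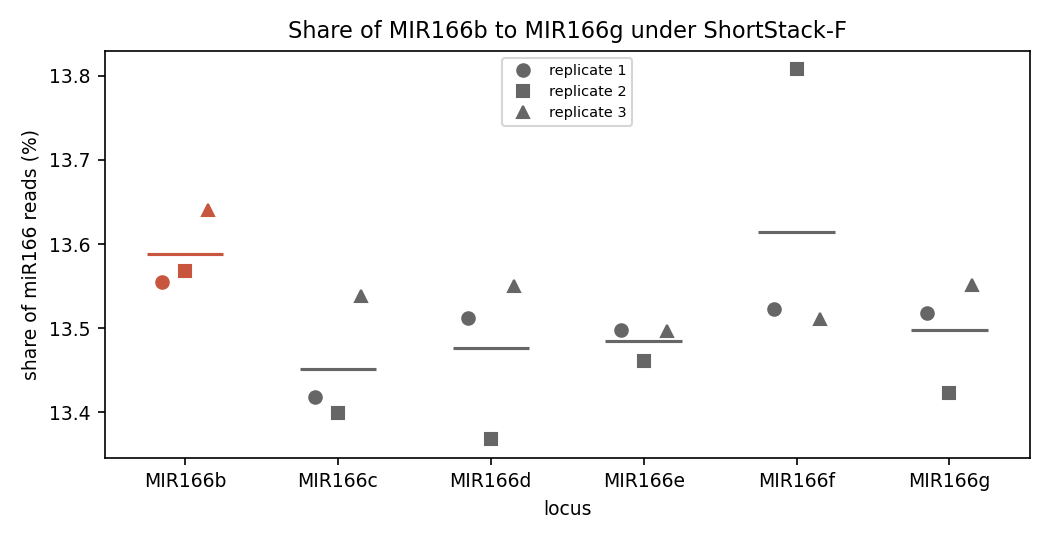
Points give the share of MIR166b (red) and of MIR166c to MIR166g (grey) in the miR166 reads of 1 library under ShortStack-F, in percent, with a bar at the mean of the 3 libraries, on an axis that does not start at 0. MIR166b lies between 13.56 and 13.64%, above the points of the same library at the other loci except MIR166f in replicate 2.

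The same log2 difference was -0.0040 ± 0.0050 (SD, n = 3) under bwa and -0.0048 ± 0.0038 under ShortStack-R, neither of which passed the test (exact permutation, adjusted p = 0.38 and 0.28). It was 0.22 ± 0.0085 under bowtie, where the mean includes MIR166e (adjusted p = 0.81, exact permutation). Without MIR166e it was -0.0034.

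The libraries were compared with each other by the odds of MIR166a against MIR166b, in 15 Fisher's exact tests on reads. Under ShortStack-U these odds were 1.38 times higher in replicate 1 than in replicate 2 (95% interval 1.11 to 1.72, Fisher's exact test, adjusted p = 0.019), and the other 2 pairs did not pass. Under ShortStack-F they were 1.02 times higher in replicates 1 and 2 than in replicate 3 (Fisher's exact test, adjusted p = 0.0067 each). Under bowtie replicates 1 and 2 differed by a factor of 1.02 (Fisher's exact test, adjusted p = 0.037), and none of the 6 tests under bwa and ShortStack-R passed. These tests compare reads of single libraries and count each placed read as independent. Under bowtie, bwa and ShortStack-R the choice between the loci is the random pick of the method. Under ShortStack-U and ShortStack-F the reads of a library share their weights, whose own noise the tests leave out. The p values therefore do not measure differences between plants.

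The pair was set beside the other 2 pairs of the table under ShortStack-U. The ratio of MIR165a to MIR165b was 9.07 ± 1.44 (SD, n = 3) and that of MIR390a to MIR390b 5.05 ± 1.24, against 4323 ± 696 for MIR166a to MIR166b. The log2 ratio of MIR166a to MIR166b exceeded them by 8.81 ± 0.170 and 9.69 ± 0.532, in 3 of 3 libraries each (exact paired permutation test, two-sided, p = 0.25, the smallest that 3 libraries allow). Under ShortStack-F the ratios were 1.39 for MIR166a to MIR166b, 1.05 for MIR165a to MIR165b and 1.12 for MIR390a to MIR390b. The size for MIR166a was not particular to its pairing with MIR166b. Under ShortStack-U the mean absolute log2 difference from MIR166a was 11.98 for MIR166b, 11.05 for MIR166c, 11.69 for MIR166d and 11.01 for MIR166e. It was 14.19 for MIR166g and 7.34 for MIR166f. Under ShortStack-F MIR166a was 1.40 times the mean of MIR166c to MIR166g. The miR166 family has 7 loci here, against 2 in each other pair.

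Over the 15 values of 3 libraries by 5 methods, which share their reads, the locus most like MIR166b was MIR166c, with a mean absolute log2 difference of 0.19, followed by MIR166d with 0.21. MIR166a was 2.50 away from MIR166b. The locus nearest to MIR166a was MIR165a, of another family, with 0.47, and among the MIR166 loci it was MIR166f, with 1.57. This likeness is a description of placed reads and depends on how each method divides them.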

How the data were processed

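The authors trimmed 3′ adapters, aligned each of the 3 libraries to TAIR10 by 8 methods and deposited reads per locus as raw counts. They also deposited the same values as RPM, which were found to be the counts divided by 1 total per library, common to all methods and loci, so that 1 read was worth 0.0864 to 0.121 RPM. Which read lengths were counted is not given in the sources used here. In each library the miR166 reads summed to the same number under the 5 placing methods (688233, 763050 and 771145). At a count of 0, 3 reads are allowed. 0 value columns were left unused.

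Ratios, shares and log2(RPM + 1) differences were computed per library and method, with exact permutation tests over libraries, Fisher's exact and exact binomial tests on reads, and Benjamini-Hochberg adjustment at 0.05. The test code was tested on simulated data. The members, lists and tests were chosen with earlier results of these data known. Both members are named with all values, the other MIR166 loci as loci of the same miRNA, the other pairs once, and the most alike locus by the smallest mean absolute log2 difference. Alternatives were each replicate left out, no replicate block, medians, raw counts, pseudocounts of 0.1 and 10, a filter at 10 RPM, other references, MIR166e or MIR166f left out, 24-mers and a narrower window.

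Sequences came from the RefSeq genome and annotation of TAIR10.1 and were matched exactly on both strands. As in ShortStack, the vicinity was 5 bins of 50 nt, the middle bin holding the leftmost base of the miRNA. Primer sequences came from the study's primer list. Python 3.11.15, numpy 2.4.6, scipy 1.17.1, pandas 2.3.3, matplotlib 3.10.9 and RNAfold 2.7.2 were used.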

Additional observations from a re-analysis of the deposited data

How the results depend on the processing

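Of the 86 alternatives to permutation tests that could reach an unadjusted p under 0.05, 82 kept direction and side of the threshold. Another 59 could not reach it, and say nothing of stability beyond the direction of the value, which 58 kept. The side was judged on the adjusted p. Among the 86 are the tests of MIR166b against MIR166c to MIR166g with a replicate left out. They include the setting that also leaves out MIR166f. In these tests a single method at its smallest p does not pass after adjustment. Their side was therefore nearly fixed and says little of stability. With ShortStack-R alone as the reference, the 3 differences between ShortStack-U and other methods were 11.98 (log2 ratio of MIR166a to MIR166b), 69.4 points (summed share) and -14.2 points (share of MIR166b), with an exact permutation p of 0.25, the smallest that its 8 arrangements allow. With a replicate left out they lay from 11.76 to 11.98, from 66.9 to 69.6 and from -14.4 to -14.4, at an exact permutation p of 0.04, again the smallest possible. The pairing comes from the design, since every method was run on the same libraries. Without the replicate block the same 3 differences had an exact permutation p of 0.0022.

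The log2 ratio of MIR166a to MIR166b under ShortStack-R lay from -0.00026 to 0.0072 with a replicate left out, a change of sign without replicate 2. For MIR166b against MIR166c to MIR166g, leaving out MIR166e gave -0.0034 under bowtie. Leaving out MIR166f gave 0.0015 under ShortStack-U and 0.012 (now past the threshold) under ShortStack-F. Under ShortStack-F this takes away the only pair in which MIR166b was lower, so that pass is no separate support. Leaving out MIR166f and replicate 2, chosen after seeing the data, gave 0.60 under ShortStack-U and 0.0093 (not past it) under ShortStack-F. After adjustment a pass was hardly possible in that last setting. With a replicate left out, the values without a call that moved by over 1.5 times lay from 0.0023 to 0.013 (bowtie) and 0.0032 to 0.0088 (bwa) for MIR166a to MIR166b, and from -1.39 to -0.16 (ShortStack-U), -0.0064 to -0.0014 (bwa) and -0.0063 to -0.0027 (ShortStack-R) for MIR166b against the 5 loci. Unique start positions near MIR166a were 94.4% in a narrower window centred on the miRNA and 90.8% in the vicinity of 250 nt. The intervals of the ratio of MIR166a to MIR166b under ShortStack-U cover the counting of the 137 to 199 reads placed at MIR166b, and not other sources of variation between libraries.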
